A study of Mus musculus with 12 samples.

Results

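The RNAs held on polysomes in round spermatids were compared between Igf2bp3-/- and Igf2bp3+/- mice. Every gene of the deposited table with a mean above 0.1 FPKM over the 6 polysome libraries was a member, which gave 19051 of 28643 genes. FPKM is a read density per transcript length and library size. Both groups were 8-week-old male C57BL/6 mice, with 3 replicates each, and carried a Cas9-induced frameshift on 1 allele (Igf2bp3+/-, the control) or on both (Igf2bp3-/-). No wild-type mice were sequenced, so the control also carries an edited allele. Cycloheximide was kept in the buffers while round spermatids were isolated with a cell sorter, and polysome fractions (4 or more ribosomes) were taken from a sucrose gradient for ribosome nascent-chain complex sequencing (RNC-seq). By the study's methods, knockout males with impaired fertility were the ones taken for its experiments. The 6 total RNA libraries (RNA-seq) from the same genotypes are given beside the polysome values.

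Round spermatids are haploid cells that turn into sperm. They store many mRNAs in silent particles before use, so the share of a message that sits on polysomes, where several ribosomes translate it at once, is set separately from its amount. IGF2BP3 is an RNA-binding protein with RRM and KH domains that binds mRNAs, is known as a reader of m6A, and is linked to their stability and translation. Changes in polysomal RNA can come from the amount of a message, from its translation, or from other cells in the sort.

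The guide is shown because it defines the genotype that both groups carry, and it lies in the coding part of exon 6 of 15 of Igf2bp3 (GRCm38, GENCODE M21, chr6:49117205-49117227, plus strand, the gene being on the minus strand). Capitals mark the adjacent PAM.
Igf2bp3 guide with PAM: aatggctccaacaaactgggTGG
A frameshift need not lower the transcript, and Igf2bp3 itself was read at 40.1, 31.4 and 43.0 FPKM in Igf2bp3+/- and 43.1, 40.6 and 43.1 FPKM in Igf2bp3-/-. The groups overlapped in level, the log2 difference was 0.16 ± 0.20 (SE), with adjusted p 0.906 in limma, and 18.7% of its exonic bases are shared with a gene on the opposite strand. The transcript level therefore does not check the labels.

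Between 21490 and 22797 genes had an FPKM above 0 in a polysome library, and Pearson's r of log2 values across the tested genes, which are not independent, ranged from 0.956 to 0.975 between libraries. Read depth is unknown, since the table holds no counts. The library labelled Igf2bp3-/- replicate 2 stood apart by transcript length. The correlation across genes between its deviation from the gene mean and log2 transcript length was 0.355, whereas it lay between -0.213 and 0.068 in the other 5. The single entry CT010467.1 took 15.9% to 19.4% of the summed FPKM in the Igf2bp3+/- libraries and 8.14% to 14.6% in the Igf2bp3-/- libraries. The median log2 difference over all genes was 0.13 on polysomes. It was 0.12 with the libraries scaled to a common sum, 0.02 where that sum left out CT010467.1, and 0.01 with each library centred on its own median, a shift of -0.12. Differences of gene lists are therefore given beside this median of 0.13. Several lists moved when Igf2bp3-/- replicate 2 was left out, and their values without it are given beside them.

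On polysomes, 15 genes rose and 7 fell in Igf2bp3-/- at a Benjamini-Hochberg adjusted p under 0.05 in limma, or 0.0787% and 0.0367% of those tested (0.115% together). All 22 had groups that did not overlap, against 11.3% of all genes tested (9.44% with the knockout higher and 1.85% lower). The 22 were chosen by their difference in these same libraries, so groups apart were favoured in advance and are no separate result. The split moved to 6 and 7 with each library centred on its median, to 5 and 7 with quantile normalization, and to 8 and 7 with the libraries scaled to a common sum without the single entry CT010467.1. The count fell whichever library was left out. Each such fit also had fewer libraries to compare, so the part of a single library in the fall cannot be told apart from that. These falls concern the number past the limit with all 6 libraries, 22. The count was 3, 0 and 7 without Igf2bp3+/- replicates 1, 2 and 3, and 0, 12 and 2 without Igf2bp3-/- replicates 1, 2 and 3, the zeros standing beside 1209 and 990 genes at an unadjusted p under 0.05. The 22 genes had the same direction in every alternative that tested them, 17 for Ephx1, Mgp and Gm45062 and 18 for the rest. Since their groups did not overlap, leaving out a library could not change a direction. The 22 comprised a Leydig hormone, 9 detoxification, secreted and lipid-binding proteins, 9 genes from a stretch of chromosome 5 and 3 others. At an unadjusted p under 0.05, which serves below only to describe gene lists, 5.36% of all genes were higher and 1.12% lower, and without Igf2bp3-/- replicate 2 these shares were 4.6% and 1.0%. A log2 difference above 0 was found for 65.3% of all genes, or 67.7% without that library.

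**Figure D1:**
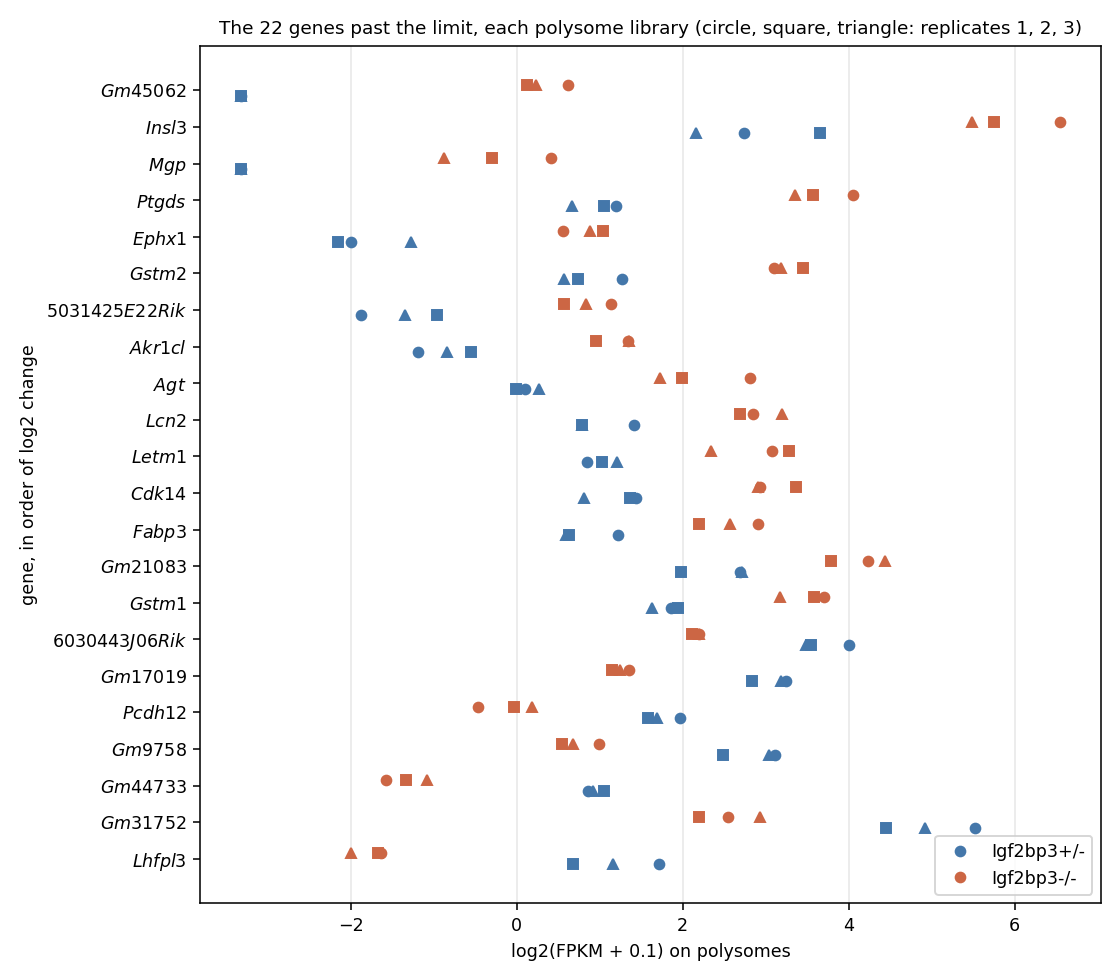
Level of each of the 22 genes past the limit on the log2(FPKM + 0.1) scale (x axis), with genes in order of log2 change on the y axis, blue for Igf2bp3+/- and orange for Igf2bp3-/-, and 1 symbol per library. The libraries of the genotypes do not overlap for any of the 22 genes, which the choice of genes in these same libraries favoured. Gm45062 and Mgp are listed at 0 in all 3 Igf2bp3+/- libraries.

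Leydig cells lie between the seminiferous tubules and make testosterone and the peptide hormone INSL3. Of 13 Leydig markers in the table, 9 were tested and 1 passed the limit. All 9 had a log2 difference above 0, against 65.3% of all genes. The groups did not overlap for 8, each with the knockout higher, against 9.44% of all genes. The median difference of the tested Leydig markers was 1.35 on polysomes and 1.22 in total RNA. The polysome median minus that of all genes was 1.23. With 1 or 0.01 in place of 0.1 added to the FPKM it was 0.68 or 1.91, so its size depends on this setting. Insl3 was read at 6.57, 12.5 and 4.37 FPKM in Igf2bp3+/- and 93.5, 53.8 and 44.9 FPKM in Igf2bp3-/-. Every Igf2bp3-/- library lay more than 3 times above every Igf2bp3+/- library, and Insl3 rose by 3.08 ± 0.37 (SE) on the log2 scale, with adjusted p 0.0104 in limma, although 64.8% of its exonic bases belong to Jak3 as well. Cyp17a1, which turns progestins into androgen precursors, stood at 1.17, 1.04 and 0.899 FPKM in Igf2bp3+/- and 3.01, 2.73 and 2.61 FPKM in Igf2bp3-/-. Its log2 difference of 1.35 ± 0.26 (SE) missed the limit at an adjusted p of 0.144. The enzyme that begins steroid synthesis from cholesterol, Cyp11a1, was at 0.650, 0.179 and 0.272 FPKM in Igf2bp3+/- and 1.95, 1.34 and 0.926 FPKM in Igf2bp3-/-. Star, which carries cholesterol into mitochondria, was at 0.247, 0.143 and 0.263 FPKM in Igf2bp3+/- and 0.657, 0.542 and 0.499 FPKM in Igf2bp3-/-. Hsd3b6, a Leydig 3-beta-hydroxysteroid dehydrogenase, was at 0.815, 0.357 and 0.584 FPKM in Igf2bp3+/- and 2.36, 1.71 and 1.07 FPKM in Igf2bp3-/-. The groups of these 3 genes did not overlap either, and their log2 differences were 1.76, 1.08 and 1.40 with adjusted p-values of 0.400, 0.689 and 0.558. The receptor of luteinizing hormone, Lhcgr, was at 0, 0 and 0.0412 FPKM in Igf2bp3+/- and 0.507, 0.118 and 0.0777 FPKM in Igf2bp3-/-, near the floor of detection. Lhcgr reached the minimum level only through the Igf2bp3-/- libraries, so the filter favoured its direction in advance. Its log2 difference of 1.35 is also the median of the list. Scarb1, a lipoprotein receptor that germ cells also express, was the exception among the 9 in level, at 12.9, 14.1 and 15.7 FPKM in Igf2bp3+/- and 16.9, 17.5 and 15.0 FPKM in Igf2bp3-/-, with overlapping groups and a log2 difference of 0.21. The summed level of the 13 markers was 22.5 to 28.5 FPKM in Igf2bp3+/- and 67.0 to 120.0 FPKM in Igf2bp3-/-, most of it from Insl3 and Scarb1. None of the 5 defining markers was at 0 in all 6 libraries. From such bulk samples, more cells of a type and more RNA per cell cannot be told apart.

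Testis macrophages sit beside Leydig cells. Of 16 macrophage markers tested, 15 had a log2 difference above 0 and 7 had an unadjusted p under 0.05, with a median of 0.87 on polysomes and 0.50 in total RNA. Their summed level was 8.63 to 9.95 FPKM in Igf2bp3+/- and 15.4 to 20.96 FPKM in Igf2bp3-/-. The polysome median of the list minus that of all genes was 0.74. With 1 or 0.01 in place of 0.1 added to the FPKM it was 0.25 or 1.02. Cd74, the invariant chain that guides class II MHC molecules, stood at 0.376, 0.244 and 0.0801 FPKM in Igf2bp3+/- and 2.06, 1.33 and 1.11 FPKM in Igf2bp3-/-, a log2 difference of 2.33 ± 0.42 (SE) that missed the limit (adjusted p 0.0964). The complement subunit C1qb was at 2.54, 2.56 and 3.27 FPKM in Igf2bp3+/- and 4.94, 4.42 and 4.07 FPKM in Igf2bp3-/-. C1qa, its partner, was at 0.145, 0 and 0.401 FPKM in Igf2bp3+/- and 1.57, 0.639 and 0.321 FPKM in Igf2bp3-/-. Lysozyme gene Lyz2, which has the near-identical copy Lyz1 and is uncertain, was at 0.784, 0.282 and 0.838 FPKM in Igf2bp3+/- and 2.15, 0.985 and 2.16 FPKM in Igf2bp3-/-. Of these 4 genes, C1qa alone had overlapping groups, and none passed the limit. The class II gene H2-Ab1 and the surface receptor Adgre1 had log2 differences of 0.52 and 0.80, with adjusted p-values of 0.786 and 0.787.

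Sertoli cells, which nurse the germ cells inside the tubule, gave a mixed picture. Of 17 Sertoli markers, 8 were tested and 5 of these had a difference above 0, with a median of 0.58 on polysomes against -0.11 in total RNA. The tested members given with values below all came from those 5, so they do not show the members with a difference below 0. The summed level was 6.40 to 6.93 FPKM against 9.82 to 12.99 FPKM. The polysome median of the list minus that of all genes was 0.46. With 1 or 0.01 in place of 0.1 added to the FPKM it was 0.09 or 0.79. Fshr, the receptor of follicle-stimulating hormone, was at 0 in all 6 libraries, and the transcription factors Sox9 and Wt1 were below the minimum level. Clusterin (Clu), a secreted chaperone, stood at 1.39, 1.17 and 1.16 FPKM in Igf2bp3+/- and 3.56, 3.42 and 2.71 FPKM in Igf2bp3-/-. Its groups did not overlap, with a log2 difference of 1.31 ± 0.26 (SE) and an adjusted p of 0.162. Amhr2, the receptor of anti-Müllerian hormone, which Leydig cells also express, had a difference of 1.06, whereas the tight junction gene Cldn11 had 0.52 with overlapping groups. The beta-defensin Defb19 had 0.65.

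The other somatic lists were smaller. The peritubular list had 7 tested genes, all with a difference above 0 and 0 past an unadjusted p of 0.05, and its summed level of 107 to 134 FPKM against 138 to 181 FPKM was mostly Actg2, a smooth muscle actin (log2 difference 0.33). Acta2, the other smooth muscle actin, was at 0.691, 0.699 and 0.720 FPKM in Igf2bp3+/- and 1.08, 1.03 and 1.24 FPKM in Igf2bp3-/-. Of 9 endothelial markers only 3 were tested, Cldn5 had -0.50 and Kdr, a receptor of VEGF, 0.32, and the summed level overlapped between the groups (1.67 to 2.14 FPKM against 2.00 to 2.33 FPKM). The 5 red blood cell genes summed to 15.6, 19.2 and 13.6 FPKM in Igf2bp3+/- and 36.4, 16.6 and 35.9 FPKM in Igf2bp3-/-, with replicate 2 of Igf2bp3-/- inside the range of the control. Among the germ cell lists, the spermatogonia markers summed to 9.63 to 10.3 FPKM against 10.4 to 13.6 FPKM. The spermatocyte markers summed to 709 to 816 FPKM against 664 to 912 FPKM and the round spermatid markers to 2391 to 2986 FPKM against 2876 to 3121 FPKM. The elongating spermatid markers, which include the protamine and transition protein genes that round spermatids already transcribe, summed to 14475 to 16769 FPKM against 13345 to 24745 FPKM. The sum of the round spermatid list exceeded the sums of the spermatocyte and spermatogonia lists and of each somatic list in every library.

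**Figure D2:**
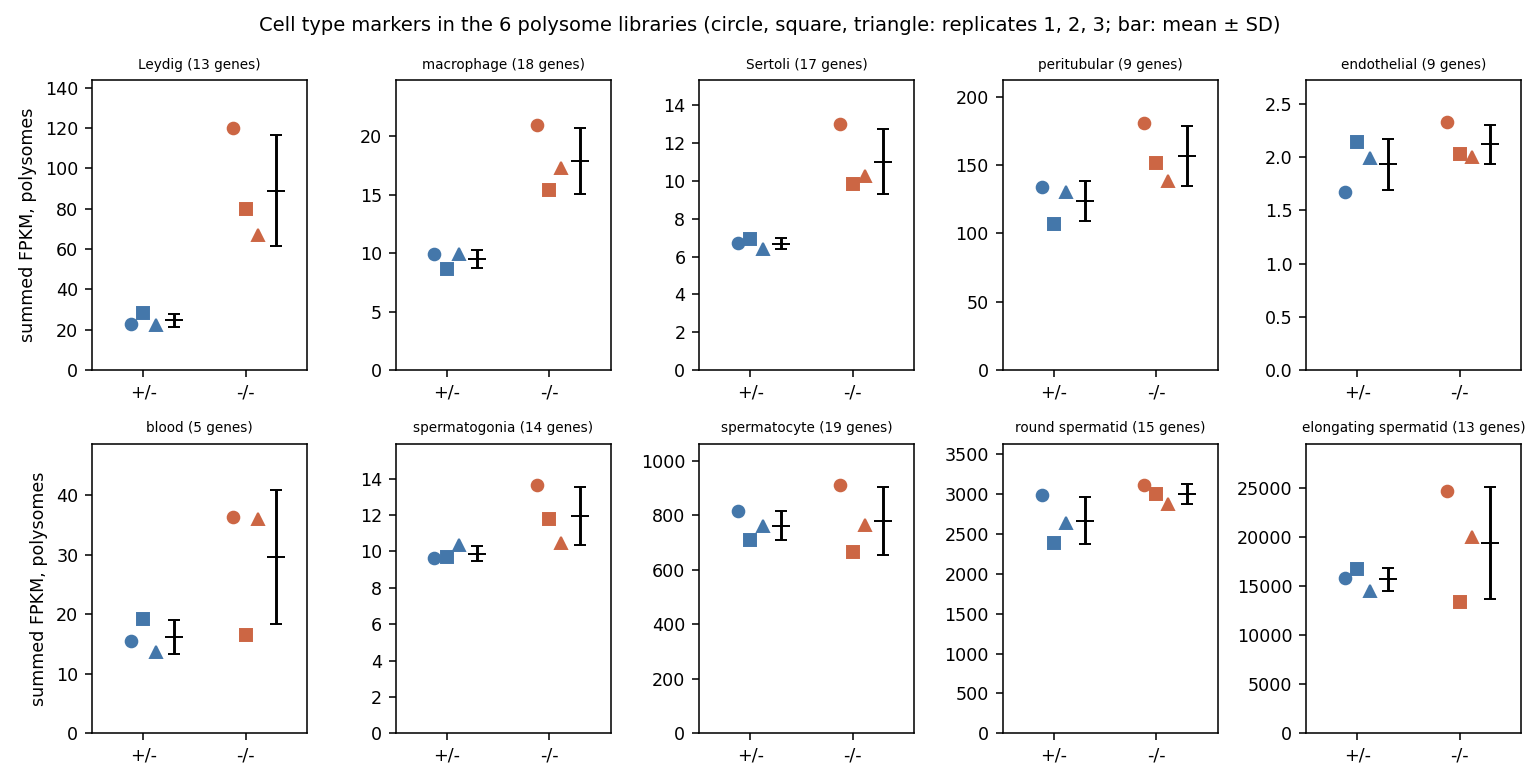
Summed FPKM of 10 cell type marker lists in each polysome library (y axis, starting at 0 and scaled per panel), by Igf2bp3 genotype, with the mean ± SD of 3 libraries in black. The Leydig, macrophage, Sertoli, peritubular and spermatogonia sums of the genotypes do not overlap, while the other 5 do. The peritubular and spermatogonia ranges nearly touch. The sums are not rescaled, and the median log2 difference of all genes on this scale was 0.13.

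Enzymes that neutralise reactive compounds and secreted proteins made up 9 of the 15 rising genes, Fabp3 included. Among 69 tested glutathione and detoxification enzymes 3 rose, 13 were higher at an unadjusted p under 0.05 and 0 were lower, yet the median difference was 0.17, near that of all genes. Gstm2, a mu-class glutathione transferase, was read at 2.30, 1.57 and 1.38 FPKM in Igf2bp3+/- and 8.51, 10.8 and 8.96 FPKM in Igf2bp3-/-. Gstm1, of the same class, was read at 3.52, 3.74 and 3.01 FPKM in Igf2bp3+/- and 12.9, 11.8 and 8.94 FPKM in Igf2bp3-/-. They rose by 2.39 ± 0.26 and 1.67 ± 0.24 (SE) on the log2 scale, with adjusted p-values of 0.00671 and 0.0215 in limma, while the germ cell member Gstm5, at 1181, 813 and 1019.7 FPKM in Igf2bp3+/- and 983, 782 and 973 FPKM in Igf2bp3-/-, had a difference of -0.13. Gstm1 has the near-identical pseudogene Gstm2-ps1 and is uncertain. Akr1cl, an aldo-keto reductase, rose from 0.338, 0.580 and 0.459 to 2.42, 1.83 and 2.46 FPKM, by 2.08 ± 0.30 (SE). Ephx1, the microsomal epoxide hydrolase, rose from 0.151, 0.125 and 0.312 to 1.37, 1.95 and 1.74 FPKM, by 2.63 ± 0.35 (SE). Both changes were past the limit at adjusted p-values of 0.0265 and 0.0160. Akr1a1, a widely expressed reductase, stood at 3.90, 2.98 and 3.60 FPKM in Igf2bp3+/- and 4.83, 4.24 and 5.58 FPKM in Igf2bp3-/-, with a difference of 0.47 that did not pass.

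Among 43 tested complement, serpin and plasma protein genes 1 rose, 9 were higher at an unadjusted p under 0.05 and 0 lower, and the median was 0.37 on polysomes and 0.38 in total RNA. Ptgds, which makes prostaglandin D2, was read at 2.18, 1.98 and 1.49 FPKM in Igf2bp3+/- and 16.5, 11.7 and 10.1 FPKM in Igf2bp3-/-. It rose by 2.69 ± 0.26 (SE) and had the smallest adjusted p of the comparison, 0.00635 in limma. Apolipoprotein E (Apoe) stood at 5.66, 9.32 and 7.47 FPKM in Igf2bp3+/- and 17.4, 11.1 and 10.3 FPKM in Igf2bp3-/- without passing (adjusted p 0.735). Outside that list, Lcn2, a secreted carrier of iron-binding siderophores, rose from 2.55, 1.63 and 1.62 to 7.09, 6.34 and 9.07 FPKM. Angiotensinogen (Agt), the precursor of angiotensin, rose from 0.973, 0.893 and 1.11 to 6.92, 3.87 and 3.21 FPKM. Fabp3, which binds fatty acids inside the cell, rose from 2.23, 1.45 and 1.41 to 7.43, 4.49 and 5.84 FPKM. The log2 changes of these 3 were 1.92 ± 0.27, 2.06 ± 0.31 and 1.74 ± 0.28 (SE), with adjusted p-values of 0.0215, 0.0306 and 0.0476 in limma, and 19.6% of the exonic bases of Fabp3 are also covered from the opposite strand.

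Collagens and matrix proteins had 58 tested genes, of which 1 rose, 7 were higher and 1 lower at an uncorrected p under 0.05, and the median was 0.30 on polysomes and 0.02 in total RNA. The polysome median without Igf2bp3-/- replicate 2 was 0.18, near the 0.14 of all genes, with 7 higher and 0 lower. Mgp, a secreted inhibitor of calcification, had 1.24, 0.715 and 0.443 FPKM in Igf2bp3-/- and was listed at 0 in the 3 control libraries (adjusted p 0.0265). The matrix glycoprotein Sparc was at 0.649, 0.816 and 0.957 FPKM in Igf2bp3+/- and 1.47, 2.09 and 1.67 FPKM in Igf2bp3-/-. Gelsolin (Gsn), which cuts actin filaments, was at 0.723, 0.845 and 0.741 FPKM in Igf2bp3+/- and 1.93, 2.32 and 1.80 FPKM in Igf2bp3-/-. The groups of both were apart without passing the limit, with log2 differences of 1.02 and 1.28. Col22a1, the list member with the highest level, was at 23.2, 32.9 and 32.6 FPKM in Igf2bp3+/- and 47.2, 39.6 and 34.1 FPKM in Igf2bp3-/- and had 0.45. The detoxification, plasma and matrix genes past the limit were thus higher in Igf2bp3-/-. The medians of the detoxification list, and of the matrix list without Igf2bp3-/- replicate 2, lay near that of all genes. Whether these genes followed the Leydig and macrophage markers from library to library was not tested. The part of other cells in these changes was not tested either.

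A further group shared a position rather than a function. Of the 311 tested genes that start within the first 35 Mb of chromosome 5, a window chosen with earlier results of these data known, 9 passed the limit (2.89%), 4 rising and 5 falling, while 13 of 18226 genes elsewhere did (0.0713%). Igf2bp3 lies on chromosome 6. The median difference of the 311 genes was 0.07, below that of all genes. Lhfpl3 (chr5:22746059-23275597, plus strand), of a family of tetraspan membrane proteins, was read at 3.17, 1.502 and 2.13 FPKM in Igf2bp3+/- and 0.221, 0.213 and 0.151 FPKM in Igf2bp3-/-. It fell by 2.95 on the log2 scale (SE 0.35), adjusted p 0.0104 in limma, and 17.6% of its exonic bases are also covered from the opposite strand. The long noncoding RNA Gm31752 (chr5:18481705-18490194, minus strand) was read at 45.9, 21.7 and 30.1 FPKM in Igf2bp3+/- and 5.75, 4.48 and 7.52 FPKM in Igf2bp3-/-. The long noncoding RNA 6030443J06Rik (chr5:22550432-22807850, plus strand), which overlaps the start of the Lhfpl3 locus, was at 15.9, 11.5 and 11.1 FPKM in Igf2bp3+/- and 4.48, 4.21 and 4.48 FPKM in Igf2bp3-/-. These fell by 2.40 and 1.51 on the log2 scale, with adjusted p-values of 0.0106 and 0.0306.

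The rising genes of the window included Cdk14, a kinase activated by a membrane-bound cyclin, at 2.60, 2.47 and 1.66 FPKM in Igf2bp3+/- and 7.55, 10.2 and 7.38 FPKM in Igf2bp3-/-. Letm1, which exchanges cations across the inner mitochondrial membrane, was at 1.70, 1.94 and 2.21 FPKM in Igf2bp3+/- and 8.33, 9.65 and 4.97 FPKM in Igf2bp3-/-. The long noncoding RNA 5031425E22Rik was at 0.172, 0.413 and 0.293 FPKM in Igf2bp3+/- and 2.097, 1.38 and 1.68 FPKM in Igf2bp3-/-. Their log2 changes were 1.87 ± 0.26, 1.87 ± 0.29 and 2.24 ± 0.35 (SE), with adjusted p-values of 0.0215, 0.0306 and 0.0314 in limma. The same stretch holds multicopy genes related to Speer, a spermatid-specific family with many near-identical copies, so single values are uncertain. Gm9758 fell from 8.58, 5.52 and 8.09 to 1.89, 1.36 and 1.499 FPKM and Gm17019 fell from 9.40, 7.01 and 8.99 to 2.45, 2.12 and 2.27 FPKM, whereas Gm21083 rose from 6.33, 3.84 and 6.44 to 18.6, 13.7 and 21.6 FPKM. Of 11 Speer genes tested 0 passed, the median was 0.01, and Speer3, at 6.41, 3.45 and 5.38 FPKM in Igf2bp3+/- and 2.63, 2.11 and 2.83 FPKM in Igf2bp3-/-, had a difference of -0.95. All 9 genes of the window moved in the same direction in total RNA, and 8 of the 9 passed the limit there as well, where 0.256% of all genes tested did. Of all 22 genes past the limit on polysomes, 17 passed in total RNA. By the study's methods both assays came from shared extracts, so a larger share was favoured in advance and is no separate result.

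The 3 genes left were on other chromosomes. Gm44733, a long noncoding RNA, fell from 1.72, 1.98 and 1.79 to 0.236, 0.296 and 0.373 FPKM, with 10.97% of its exonic bases shared with the opposite strand. Pcdh12, a protocadherin of endothelial and other cells, fell from 3.82, 2.90 and 3.12 to 0.626, 0.879 and 1.04 FPKM, by 1.85 on the log2 scale against -0.68 in total RNA. Gm45062 had 1.43, 0.993 and 1.07 FPKM in Igf2bp3-/- and was listed at 0 in the control, but all of its exonic bases are also exons of other genes on the same strand.

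Fibrous sheath and outer dense fiber proteins of the tail had a median difference above that of all genes, with and without Igf2bp3-/- replicate 2. This did not extend to the 47 cilia and flagella associated and radial-spoke proteins. Their median minus that of all genes was 0.03, and -0.04 without that library. The fibrous sheath and the outer dense fibers stiffen the flagellum and anchor its glycolytic enzymes. Of 24 tested genes 0 passed the limit, 9 were higher at an unadjusted p under 0.05 and 0 lower, and the median was 0.34 on polysomes against 0.09 in total RNA. Without Igf2bp3-/- replicate 2 the count was 4 and the median 0.32, beside 0.14 for all genes. Akap3, which anchors protein kinase A in the fibrous sheath, stood at 103, 104 and 134 FPKM in Igf2bp3+/- and 177, 217 and 140.1 FPKM in Igf2bp3-/-. Odf3b, an outer dense fiber protein, stood at 8.38, 12.1 and 10.3 FPKM in Igf2bp3+/- and 15.3, 22.4 and 13.1 FPKM in Igf2bp3-/-. The spermatogenesis-associated gene Spata3 stood at 271, 299 and 260.5 FPKM in Igf2bp3+/- and 518, 415 and 313 FPKM in Igf2bp3-/-. The groups of these 3 did not overlap, with Igf2bp3-/- replicate 3 the nearest to the control, and the differences of 0.63, 0.69 and 0.56 had adjusted p-values of 0.704, 0.736 and 0.744. Smcp, of the mitochondrial capsule around the midpiece, was at 184, 219 and 171 FPKM in Igf2bp3+/- and 349, 304 and 215 FPKM in Igf2bp3-/-. Odf1, the main outer dense fiber protein, was at 36.2, 36.6 and 51.7 FPKM in Igf2bp3+/- and 69.7, 55.0 and 56.5 FPKM in Igf2bp3-/-. The groups overlapped for Smcp only, and the total RNA differences of both were below 0, at -0.28 and -0.20.

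The manchette is a skirt of microtubules that shapes the sperm head, and LINC proteins tie it to the nucleus. Among 31 tested genes of this group and of the head-tail junction 6 were higher and 0 lower at an uncorrected p under 0.05, with a median of 0.27 on polysomes and 0.03 in total RNA. The count without Igf2bp3-/- replicate 2 was 1. Ccdc42, needed for the head-tail junction, was at 52.7, 52.2 and 63.7 FPKM in Igf2bp3+/- and 124, 81.1 and 67.2 FPKM in Igf2bp3-/-. Spag4, a SUN domain protein, was at 142, 175 and 138 FPKM in Igf2bp3+/- and 289, 238 and 166 FPKM in Igf2bp3-/-. Lamin gene Lmnb2 was at 113, 152 and 139 FPKM in Igf2bp3+/- and 239, 207 and 147 FPKM in Igf2bp3-/-. Only for Ccdc42 among these 3 were the groups apart, the differences of 0.65, 0.58 and 0.54 did not pass, and the nesprin gene Syne3 had 0.72.

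Genes of the acrosome and of sperm-egg fusion lay near the background, with a median of 0.18 over 49 genes and 0.26 in total RNA. Dcst2, a fusion factor on the sperm surface, was at 10.2, 12.7 and 13.2 FPKM in Igf2bp3+/- and 32.3, 28.4 and 15.4 FPKM in Igf2bp3-/-. Tmem95, also needed for fusion, was at 17.4, 15.2 and 15.3 FPKM in Igf2bp3+/- and 28.7, 25.0 and 24.4 FPKM in Igf2bp3-/-. Their groups did not overlap, and their log2 differences of 1.01 ± 0.28 and 0.70 ± 0.20 (SE) had adjusted p-values of 0.593 and 0.614. Acrosin (Acr) and Spaca4 had 0.61 and 0.46. Catsper1, the pore subunit of the sperm calcium channel, was at 12.2, 9.75 and 14.4 FPKM in Igf2bp3+/- and 34.5, 26.2 and 17.0 FPKM in Igf2bp3-/-, a difference of 1.05 (adjusted p 0.543), while the 22 genes of the CatSper and ion transport list had a median of 0.16, which was 0.02 without Igf2bp3-/- replicate 2. In the Spata and Tex families 7 of 58 genes were higher and 0 lower at an uncorrected p under 0.05, or 11 without that library. Tex38, which helps to remove cytoplasm from the sperm head, was at 220.5, 180.4 and 192 FPKM in Igf2bp3+/- and 262, 318 and 331 FPKM in Igf2bp3-/-, and Spata31d1d, Spata32 and Spata31 had differences of 0.75, 0.56 and 0.66. Glycolytic enzymes, several of which are anchored in the tail, had a median of 0.31 over 26 genes, or 0.21 without Igf2bp3-/- replicate 2, with differences of 0.57 and 0.79 for the aldolases Aldoart2 and Aldoa and 0.52 for the isomerase Tpi1. Enzymes of cholesterol synthesis had 0.35 over 22 genes and cytochrome P450 enzymes, which include steroid-making ones, 0.36 over 22, each with 3 genes higher at an unadjusted p under 0.05. Cyclins and cyclin-dependent kinases had 0.36 over 40, of which Cdk14 alone passed the limit.

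The proteins that replace histones at the end of spermiogenesis were among the most abundant mRNAs and varied widely between the knockout libraries. Prm1, a protamine, stood at 4403, 4341 and 3360.3 FPKM in Igf2bp3+/- and 7458, 2366 and 5534 FPKM in Igf2bp3-/-. Tnp2, a transition protein, stood at 3268, 4375 and 3347 FPKM in Igf2bp3+/- and 7096, 3678 and 4603 FPKM in Igf2bp3-/-. In both, the groups overlapped because Igf2bp3-/- replicate 2 lay within or below the control range. The 25 tested transition proteins, protamines and spermatid histones had a median of 0.18, and 0.35 without that library. Among 42 tested clustered histone genes, which lie in the replication-dependent gene clusters, 4 were higher and 0 lower at an uncorrected p under 0.05, or 9 without that library, and the median was 0.22, or 0.36 without it. The linker histone H1fnt stood at 193, 256 and 218 FPKM in Igf2bp3+/- and 563, 368 and 218 FPKM in Igf2bp3-/-, with a difference of 0.69 that did not pass. Of 3 further germ cell regulators that the study examined, the methyltransferase Dot1l stood at 10.2, 17.5 and 15.6 FPKM in Igf2bp3+/- and 21.2, 31.3 and 14.2 FPKM in Igf2bp3-/-. The deacetylase Hdac11 stood at 3.74, 4.77 and 3.81 FPKM in Igf2bp3+/- and 6.50, 4.79 and 4.59 FPKM in Igf2bp3-/-. The Y-box mRNA-binding protein Ybx2 stood at 42.9, 55.4 and 55.0 FPKM in Igf2bp3+/- and 86.1, 69.5 and 57.5 FPKM in Igf2bp3-/-. Dot1l and Hdac11 had differences of 0.58 ± 0.30 and 0.35 ± 0.25 (SE) on polysomes and -0.28 and -0.26 in total RNA, with overlapping groups for both, and Ybx2 had 0.46 ± 0.22 (SE). Their adjusted p-values on polysomes were 0.789, 0.831 and 0.767.

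Regulatory families with long transcripts shared a small difference above that of all genes. Histone acetylation and methylation enzymes had a difference above 0 in 71 of 86 genes (82.6%, against 65.3% of all genes), with a median of 0.20, and 7 were higher and 0 lower at an uncorrected p under 0.05. Chromatin remodelers and bromodomain proteins had 47 of 59 above 0, a median of 0.21 and 6 higher and 0 lower. Deubiquitinating enzymes had 57 of 64 above 0 and a median of 0.26, yet 0 at an unadjusted p under 0.05 in either direction. None of these genes passed the limit. Without Igf2bp3-/- replicate 2 the 3 medians were 0.15, 0.15 and 0.16, beside 0.14 for all genes, so that the distance of these families from all genes rested on that library.

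Arid1a, a subunit of the SWI/SNF remodeler, stood at 1.55, 2.17 and 2.56 FPKM in Igf2bp3+/- and 4.37, 7.83 and 4.25 FPKM in Igf2bp3-/-. Its groups did not overlap, the log2 difference was 1.32 ± 0.30 (SE), adjusted p 0.341, and in total RNA it was 0.05. Smarcd1, of the same complex, stood at 0.443, 0.765 and 0.839 FPKM in Igf2bp3+/- and 1.47, 1.64 and 1.154 FPKM in Igf2bp3-/-. Brd3, a reader of acetylated histones, stood at 70.5, 97.1 and 97.6 FPKM in Igf2bp3+/- and 133, 213 and 102 FPKM in Igf2bp3-/-. The deacetylase Hdac3 stood at 11.9, 11.4 and 11.1 FPKM in Igf2bp3+/- and 19.6, 17.5 and 18.3 FPKM in Igf2bp3-/- and, unlike those, had a like difference in total RNA (0.68 and 0.73). Setd5, Prdm2 and Kdm2b had 0.69, 0.78 and 0.61 on polysomes and -0.30, -0.21 and -0.22 in total RNA. In the last 2 the groups overlapped at Igf2bp3-/- replicate 3 (Prdm2, 9.66, 17.4 and 6.07 FPKM in the Igf2bp3-/- libraries against 5.71, 6.70 and 5.16 FPKM).

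Ubiquitin ligases lay closer to the background. The RING finger and TRIM list had 6 of 99 genes higher and 0 lower at an uncorrected p under 0.05 with a median of 0.21, or 3 higher and 0.17 without Igf2bp3-/- replicate 2, and the cullin, Kelch-like and F-box list 3 of 92 and 0, with a median of 0.18. Rnf44, a RING finger protein, stood at 18.4, 26.0 and 25.4 FPKM in Igf2bp3+/- and 40.9, 75.4 and 39.9 FPKM in Igf2bp3-/-. Trim45, a TRIM protein, stood at 5.13, 6.10 and 6.59 FPKM in Igf2bp3+/- and 11.2, 11.7 and 8.97 FPKM in Igf2bp3-/-. Fbxo24, an F-box protein of spermatids, stood at 4.07, 4.17 and 5.79 FPKM in Igf2bp3+/- and 15.7, 11.2 and 9.80 FPKM in Igf2bp3-/-. In all 3 every Igf2bp3-/- library was above every Igf2bp3+/- library, with log2 differences of 1.11 ± 0.27, 0.83 ± 0.23 and 1.36 ± 0.26 (SE), and none passed (adjusted p 0.437, 0.587 and 0.134). Their total RNA differences were 0.08, -0.26 and -0.33. Among factors of mRNA decay, whose 58 genes had a median of 0.24 (0.10 without Igf2bp3-/- replicate 2), the deadenylase subunit Cnot3 stood at 0.825, 1.03 and 0.806 FPKM in Igf2bp3+/- and 2.98, 2.25 and 1.36 FPKM in Igf2bp3-/-. Zfp36l1, which binds AU-rich elements, and the antiproliferative adaptor Tob1 had 1.29 and 0.93 with overlapping groups at Igf2bp3-/- replicate 3. The 24 writers, erasers and readers of m6A had a median of 0.21 on polysomes and -0.15 in total RNA, with 1 gene, Prrc2a (0.89), at an unadjusted p under 0.05, and the demethylase Fto had 0.52.

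Immediate early genes, which respond within minutes to signals and to handling of cells, had a difference above 0 in all 16 tested genes, with a median of 0.58 on polysomes and 0.11 in total RNA. None passed the limit, 5 were higher at an unadjusted p under 0.05, and 4 were without Igf2bp3-/- replicate 2. The polysome median of the list minus that of all genes was 0.45. With 1 or 0.01 in place of 0.1 added to the FPKM it was 0.15 or 0.78. Nr4a1, an orphan nuclear receptor, stood at 5.95, 8.53 and 8.43 FPKM in Igf2bp3+/- and 11.6, 29.3 and 10.9 FPKM in Igf2bp3-/-. Dusp1, a phosphatase of MAP kinases, stood at 2.08, 3.27 and 2.23 FPKM in Igf2bp3+/- and 6.95, 5.49 and 2.94 FPKM in Igf2bp3-/-. Fosl1, with 57.2% of its exonic bases also covered from the opposite strand, stood at 0.714, 1.32 and 0.658 FPKM in Igf2bp3+/- and 2.21, 2.62 and 0.904 FPKM in Igf2bp3-/-. Igf2bp3-/- replicate 3 was the knockout library closest to the control for all 3 and lay within its range for Dusp1 and Fosl1. The medians of the list in single libraries, as offsets from the gene means, were -0.60, -0.27 and -0.27 in Igf2bp3+/- and 0.79, 0.25 and -0.17 in Igf2bp3-/-, so replicate 3 of the knockout lay nearest to the control.

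Transcripts of the translation machinery had lower differences. Cytosolic ribosomal proteins are encoded by short mRNAs whose translation is known to be controlled as a group. On polysomes 21 of 87 had a difference above 0 (24.1%, against 65.3% of all genes), 2 were higher and 3 lower at an uncorrected p under 0.05, 0 passed the limit and the median was -0.15, against 0.23 in total RNA, where 76 of 87 were above 0 (against 56.2% of all genes). Rpl32, of the large subunit, stood at 467, 342 and 342 FPKM in Igf2bp3+/- and 300.2, 192 and 294 FPKM in Igf2bp3-/-. Rpl31, also of the large subunit, stood at 119, 89.2 and 102 FPKM in Igf2bp3+/- and 76.9, 46.0 and 87.1 FPKM in Igf2bp3-/-. In both the Igf2bp3-/- libraries were all below the control, with replicate 2 the lowest, and the differences of -0.56 and -0.60 did not pass (adjusted p 0.756 and 0.756). Reads of ribosomal protein genes can be split with their many pseudogenes, and 25.3% of the exonic bases of Rpl31 lie opposite to Tbc1d8. The list's offset was 0.21, -0.02 and -0.03 in Igf2bp3+/- and 0.15, -0.51 and 0.16 in Igf2bp3-/-. Without Igf2bp3-/- replicate 2 the median was 0.09, with 56 of 87 above 0, just under the 0.14 of all genes, so the direction rested on that library.

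Mitochondrially encoded mRNAs encode subunits of the respiratory chain and are translated by mitochondrial ribosomes, not by those of the cytosol. Of 13, 12 had a difference below 0 and 6 were lower at an uncorrected p under 0.05, with a median of -0.71 on polysomes and -0.27 in total RNA. Their summed level was 1334, 631 and 1153 FPKM in Igf2bp3+/- and 659, 453 and 811 FPKM in Igf2bp3-/-. Replicate 2 of Igf2bp3+/- lay within the range of Igf2bp3-/-, and without Igf2bp3-/- replicate 2 the median was -0.41 with 1 gene at an unadjusted p under 0.05. The ATP synthase subunit mt-Atp8 stood at 19.0, 18.4 and 19.8 FPKM in Igf2bp3+/- and 10.2, 4.19 and 12.1 FPKM in Igf2bp3-/-. It was the only one of the 13 whose groups did not overlap, with a difference of -1.23 ± 0.34 (SE) and an adjusted p of 0.587, and 21.1% of its bases are shared with mt-Atp6. The cytochrome oxidase mRNAs mt-Co1 and mt-Co2, which have near-identical nuclear copies, had -0.71 and -1.17.

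The nuclear genes of energy and protein turnover did not follow the mitochondrial ones. Nuclear-encoded oxidative phosphorylation genes had a median of 0.07 over 90 genes, mitochondrial ribosomal proteins 0.08 over 78 and proteasome subunits 0.08 over 47, each just below that of all genes. In total RNA the same lists had 0.27, 0.30 and 0.32, against 0.05 over all genes. Without Igf2bp3-/- replicate 2 the polysome medians were 0.22, 0.24 and 0.21. Atp5g3, a subunit of the ATP synthase ring, had 0.50 and the proteasome inhibitor Psmf1 had 0.37, neither of them past the limit. Translation initiation and elongation factors had 0.12, close to all genes.

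**Figure D3:**
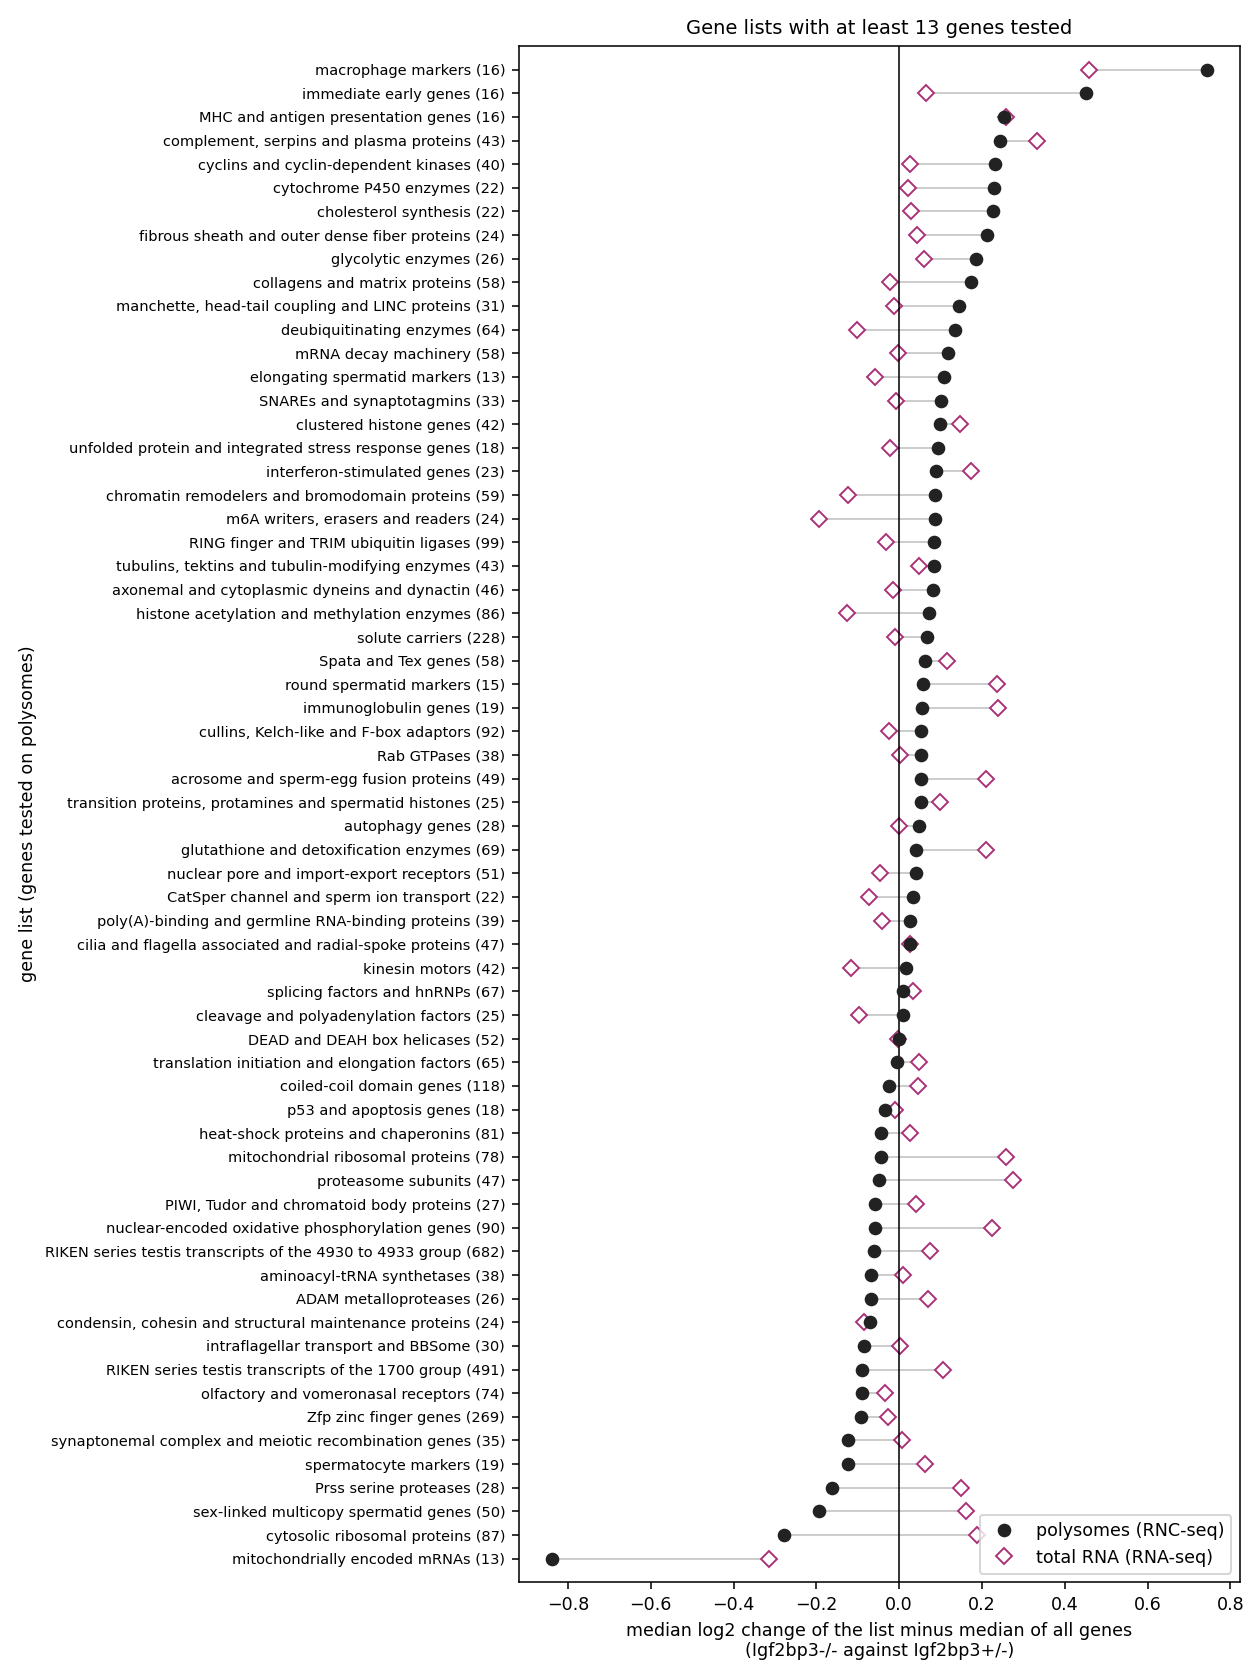
Median log2 difference of each gene list with at least 13 tested genes, minus the median of all genes, on polysomes (black circles) and in total RNA (open diamonds). Macrophage markers and immediate early genes lie at the top and mitochondrially encoded mRNAs at the bottom, and cytosolic ribosomal proteins lie on opposite sides of 0 in the 2 assays. The scale is log2(FPKM + 0.1), and the size of the top 2 polysome medians depends on the amount added to the FPKM.

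These families differ in transcript length, and length ordered the differences over all genes. With the genes in 5 equal classes from the shortest to the longest transcripts, the median differences on polysomes were 0.02, 0.11, 0.14, 0.14 and 0.20. In total RNA they were 0.14, 0.16, 0.10, 0.03 and -0.07, with the longest transcripts lowest. The offsets of the shortest class in single libraries were 0.23, -0.16 and -0.07 in Igf2bp3+/- and 0.16, -0.24 and 0.20 in Igf2bp3-/-, and those of the longest class -0.14, -0.18 and 0.00 and 0.07, 0.29 and -0.07. Igf2bp3-/- replicate 2 was the lowest of the 6 for short and the highest for long transcripts. Without it the 5 medians were 0.19, 0.17, 0.14, 0.10 and 0.11, so that on polysomes, too, the short transcripts then had the higher medians. After removal of each library's trend against length, 12 genes rose and 8 fell, 19 of them shared with the 22.

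**Figure D4:**
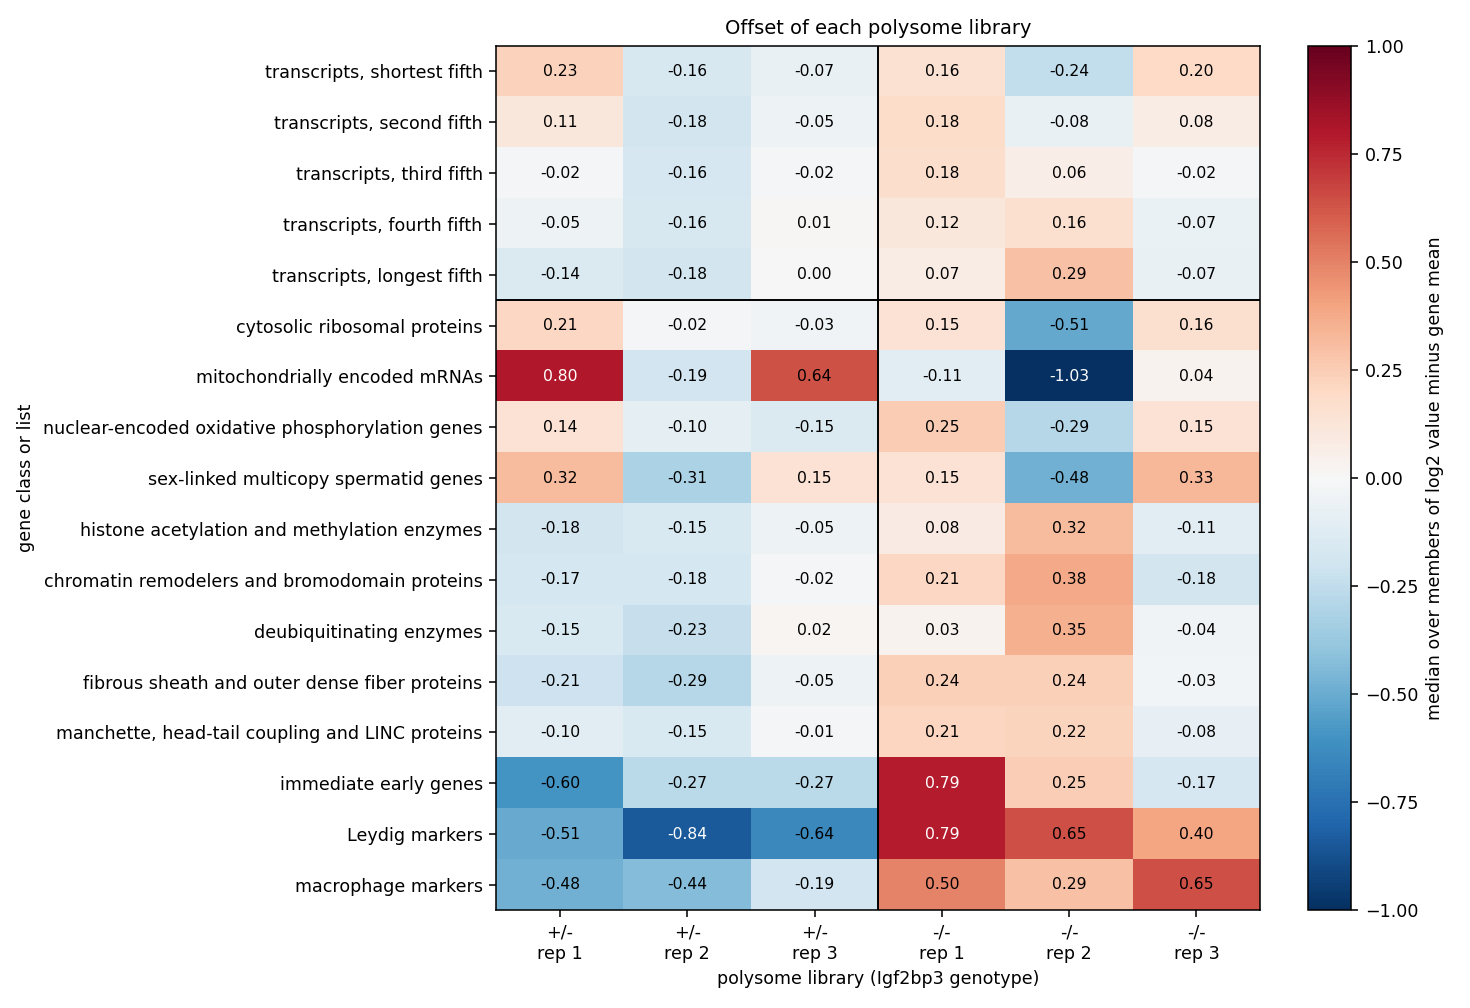
Median over the members of a class or list of the log2 value minus the gene's mean over the 6 polysome libraries, 1 column per library and 1 row per class of transcript length (top 5 rows) or gene list. The column of Igf2bp3-/- replicate 2 runs from -0.24 in the shortest to 0.29 in the longest class and holds -0.51 for ribosomal proteins, while the Leydig and macrophage rows separate the genotypes in every library.

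Families formed from symbols alone were ranked with all 6 libraries included. Their medians without Igf2bp3-/- replicate 2 are not given here, so the part of that library in the ranking was not tested. Among 98 families of at least 15 tested genes, the highest medians were Mir (0.43, 44 microRNA precursors with a median length of 79 bases, too short for a firm FPKM), Prr (0.43), Cdk (0.38), Cyp (0.31), Map (0.30), Fbxo (0.29), Dhx (0.28) and Myo (0.28). The lowest were mt (-0.58), Rps (-0.18), Rpl (-0.14), Prss (-0.03), the clone-named CT genes (-0.03), Pde (0.00), Olfr (0.02) and Cox (0.02). Proline-rich Prr genes had 7 of 17 higher at an unadjusted p under 0.05 and 16 above 0, with -0.03 in total RNA. The Prss serine proteases of the testis had 0.20 in total RNA.

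By gene class, the 13040 protein-coding genes had a median of 0.15, the 3044 long noncoding genes 0.06 and the 2034 pseudogenes 0.01. The 111 processed pseudogenes of ribosomal proteins had -0.19, close to their parent genes, whose reads they can share. Their offsets were 0.29, 0.02 and -0.02 in Igf2bp3+/- and 0.05, -0.30 and 0.11 in Igf2bp3-/-. Replicate 2 was also the lowest Igf2bp3-/- library for long noncoding genes (0.12, -0.14 and 0.15) and pseudogenes (0.07, -0.12 and 0.12). Medians of these classes without it are not given here. Autosomes ranged from 0.07 (chromosome 14) to 0.19 (chromosome 19). The X chromosome had 0.09 and the Y chromosome 0.01 on polysomes, against 0.20 and 0.27 in total RNA. Polysome libraries of 1 genotype differed by more than these medians. The offsets of X genes were 0.18, -0.33 and 0.05 in Igf2bp3+/- and 0.11, -0.13 and 0.19 in Igf2bp3-/-. Those of Y genes were 0.40, -0.52 and 0.13 in Igf2bp3+/- and 0.04, -0.41 and 0.46 in Igf2bp3-/-. The 50 sex-linked multicopy genes of spermatids, many of them near-identical copies, had -0.07 on polysomes and 0.21 in total RNA, and 0.19 on polysomes without Igf2bp3-/- replicate 2. Level had little bearing, with medians of 0.12 to 0.15 in 6 classes of mean FPKM.

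Many germ cell families lay at or under the median of all genes. Spermatocyte markers had a median of 0.00, genes of the synaptonemal complex and of meiotic recombination 0.00, PIWI, Tudor and chromatoid body proteins 0.07, ADAM metalloproteases 0.06, intraflagellar transport 0.04 and 269 Zfp zinc finger genes 0.03. Dyneins and dynactin had 0.21, with Dnah3, a heavy chain of the axoneme, at 0.66. The tubulin and tektin list, with a median of 0.21, had 5 of 43 genes higher and 1 lower at an uncorrected p under 0.05. Both counts without Igf2bp3-/- replicate 2 were 0 and the median 0.16, beside 0.14 for all genes. With all 6 libraries, the ligases Ttll3, Ttll10 and Ttll5 and the deglutamylase Agbl5 had differences of 0.88, 0.52, 0.59 and 0.61 at unadjusted p-values of 0.0183, 0.0336, 0.0362 and 0.0387, and none passed the limit.

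Whether polysomal RNA differed beyond total RNA was asked with the interaction of genotype and assay over 18414 genes. At an adjusted p under 0.05 in limma 1 gene was higher (0.00543%) and 0 were lower, with 1312 (7.13%) at an unadjusted p under 0.05 in either direction. Of the 22 genes past the limit on polysomes, 17 passed it in total RNA as well, and 21 had the same direction there. By the study's methods, polysome and total RNA parts came from shared extracts, so the assays are not independent samples of the animals. Libraries of the same genotype and replicate number were taken to share an extract, which the methods do not state. The gene, Gm45062, had an adjusted p of 0.00714, which was 0.0515 with the extract as a block, where the count past the limit was 0 (1502 genes had an unadjusted p under 0.05). Of the 22 genes, 11 had an unadjusted interaction p under 0.05 in limma, against 7.13% of all genes. The 22 were chosen by their difference in the same polysome libraries. A larger share was thus favoured in advance and is no separate result. Examples were 1.66 for Insl3, 0.82 for Ptgds, 0.88 for Cdk14 and -1.17 for Pcdh12. Their unadjusted p-values were 0.00374, 0.0217, 0.0119 and 0.00323, and none passed after adjustment.

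By family, 5.54% of all genes had a higher and 1.58% a lower polysome than total RNA difference at an unadjusted p under 0.05. Among chromatin remodelers 12 of 59 were higher and 0 lower, among histone acetylation and methylation enzymes 13 of 86 higher and 1 lower, and among dyneins 7 of 46 higher and 1 lower. For cytosolic ribosomal proteins 1 of 87 was higher and 13 were lower. Without Igf2bp3-/- RNC-seq replicate 2 the higher counts of the first 3 lists were 6, 5 and 2, the lower count of ribosomal proteins was 5, and the shares of all genes were 4.28% higher and 1.23% lower. The Leydig list had an interaction median of 0.18 and the macrophage list 0.39, with 1 and 0 genes higher at an unadjusted p under 0.05.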

How the data were processed

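FPKM values of RNC-seq and RNA-seq libraries, 3 per genotype and assay, were analysed as deposited. The authors' FPKM are scaled by transcript length and library size. The submitters' processing notes name CASAVA 1.8, Trim Galore 0.6.6, HISAT2 and StringTie 2.1.7 with GRCm38. The annotation release and the use of strand are not given in the sources used here. The labels describe a directional poly(A) kit and another sequencer than the study's methods, which describe a full-length cDNA library. Depth is unknown, since no counts were used, so no counting intervals are given.

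Of 28668 symbols, 25 that a spreadsheet had turned into dates (0.0995% of FPKM) were left out, and 27798 of the 28643 kept matched 1 gene of GENCODE M21, which gave positions, lengths and exon overlaps. Near-identical copies were genes whose longest transcript matched the other over 50% or more of its length at 95% identity or more (BLAST 2.17.0, with overlaps from bedtools 2.31.1).

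Genes with a mean above 0.1 FPKM over the libraries compared were tested on log2(FPKM + 0.1) with limma 3.58.1 (R 4.3.3), with a variance trend and Benjamini-Hochberg adjustment at 0.05. Fold changes are on this scale and understate those of low genes. The interaction was fitted over all 12 libraries. By the study's methods both assays used parts of 1 extract. The interaction was therefore also fitted with a block for each genotype and replicate number, taken as the extract. Replicate numbers were not said to pair the genotypes, and the labels do not say whether replicates are separate animals. The study's methods give a yield of round spermatids per mouse, and its supplement calls the 3 replicates biological. The p-values measure the spread between these samples. With 3 against 3, an exact permutation test of a single gene cannot give a p below 0.1 and was not used. The fits were tested on simulated data.

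The genes and lists were chosen with earlier results of these data known, 3 of 75 lists and the checks of transcript length and of Igf2bp3-/- replicate 2 after seeing the data. Lists are described by counts and medians, without a test. The genes named were those past the limit, a few regulators, the defining markers, and in each list the member with the highest mean and the 4 with the smallest unadjusted p at a mean of at least 1 FPKM, from which examples were taken. Alternatives changed the pseudocount, filter, scaling, weights, samples and call rule.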

Additional observations from a re-analysis of the deposited data

Results flagged for a closer look

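One result was marked because the genotype difference on polysomes differed from that in total RNA. On polysomes Gm45062 had 1.43, 0.993 and 1.07 FPKM in Igf2bp3-/- and was listed at 0 in the 3 control libraries, while its log2 difference in total RNA was -0.13. The interaction of genotype and assay had an adjusted p of 0.00714 in limma, the only one under 0.05 among 18414 genes. By the study's methods, polysome and total RNA parts came from shared extracts. With a block for each genotype and replicate number, taken as the extract, the adjusted p was 0.0515 and 0 genes passed. It was 0.0670 with library weights and 0.347 with a pseudocount of 1 (range over its alternatives 0.000229 to 0.347), and Gm45062 was too low for the filter at 1 FPKM. All exonic bases of Gm45062 are also exons of Glcci1 or Umad1 on the same strand, and its reads cannot be told apart from theirs by position. Groups of 3 libraries were too small for a check of single outlying samples.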

How the results depend on the processing

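The 22 genes past the limit had the same direction under every alternative that tested them (17 or 18 of the 18). For these 22, leaving out a library could not change the direction, since their groups did not overlap. Of 99 other genes followed, 96 kept their direction as well. The exceptions were Igf2bp3, at -0.00896 with the length trend removed, Cldn11, at -0.00871 without Igf2bp3-/- replicate 2 (up to 0.94 with another library left out), and Prm1, at -0.15 without Igf2bp3-/- replicate 1 (up to 0.68). The number past the limit on polysomes was 13 (6 higher) with centred libraries, 12 (5 higher) with quantile normalization, 48 (38 higher) in a fit over all 12 libraries, and 2 (2 higher and 0 lower, with 1489 at an unadjusted p under 0.05) without the filter on low FPKM. Scaling without CT010467.1 left 8 higher. Without the adjustment, but with a change over 1.5-fold, 1102 genes passed (901 higher and 201 lower). When 1 library was left out, the count ranged from 0 to 12, with 0 to 7 higher and 0 to 5 lower. Igf2bp3+/- replicates 1, 2 and 3 left 3, 0 and 7, and Igf2bp3-/- replicates 1, 2 and 3 left 0, 12 and 2. Without Igf2bp3-/- replicate 2, 11 of the 12 were shared with the 22. The cause was not tested. Other pseudocounts, a filter at 1 FPKM, library weights and the length trend left the count within 1.5 times of 22.

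In the interaction, the count of 1 gene became 0 with library weights, with a filter at 1 FPKM and with a pseudocount of 1 (with 1495, 796 and 1372 genes at an unadjusted p under 0.05), and 2 with a pseudocount of 0.01. Without the adjustment, but with a change over 1.5-fold, 1207 genes passed (955 higher and 252 lower).

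The replicate number as a block gave 31 genes on polysomes (23 higher and 8 lower) and, with a block for each extract (genotype and replicate number), 0 in the interaction, with 1502 at an unadjusted p under 0.05. Libraries of the same number had deviations from their group means that correlated at -0.01, 0.14 and -0.01 across genes, so the numbers were not taken to pair the genotypes, and not every library correlated best with its own number.

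Of 75 lists, 41 kept the sign of their median relative to all genes under every alternative, and 46 of 1347 list values moved by more than the spread between libraries. Depth is unknown. At genes near 0.1 FPKM, such as Lhcgr and Cldn11, differences rest on levels close to the pseudocount.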
